A study of Homo sapiens with 2 samples.

Results

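The genes of the TRAF adaptors, the cIAPs, NIK and IKKα, among which are those that carry the signal from Fn14 to p52, were examined for p52 binding sites of their own. They were the 6 TRAF adaptor genes TRAF1 to TRAF6, the cIAP ubiquitin ligase genes BIRC2 and BIRC3, the NIK gene MAP3K14 and the IKKα gene CHUK, which are 10 of 20033 protein-coding genes on chromosomes 1 to 22, X and Y. They were taken by name, as TRAF family genes or members of this circuit, with earlier results of these data known. Every p52 summit within 100 kb of each gene body was collected, and genes without one were kept. The data were 2 ChIP-seq replicates of 1 group, in which MDA-MB-231 cells, an established line from triple-negative breast cancer, were starved for 8 h and treated with the cytokine TWEAK at 10 ng/ml for 48 h, with fresh TWEAK after 24 h. Chromatin was pulled down with an antibody against NFKB2, the gene product that gives p52. Libraries of untreated cells, IgG or input were not used here, so a gain of a site on treatment cannot be read from these lists.

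In resting cells, TRAF3 holds the kinase NIK in a complex with TRAF2 and the cIAPs, which mark NIK for degradation. When a receptor such as Fn14 is engaged, TRAF2 and the cIAPs are drawn to it, NIK accumulates and activates IKKα, and IKKα triggers the processing of p100 into p52. p52 pairs chiefly with RelB and binds κB elements, and several of the genes in this circuit, TRAF1 and BIRC3 among them, have long been known as NF-κB target genes.

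Replicate 1 listed 2007 summits and replicate 2 listed 1467. Each summit carried a −log10 q from the authors, a measure of how clearly the peak stood above the input, whose median was 10.3 in the first list and 9.47 in the second. The depth of the libraries was unknown, so a gene without a summit had none listed at that library's depth and threshold. A summit was called shared when the other replicate had one within 200 bp. All positions are 1-based on hg38.

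A summit lay within 100 kb of 4 of the 10 genes in replicate 1 (TRAF1, TRAF2, TRAF4 and TRAF5), against 25.0% of all protein-coding genes. In replicate 2 it was 3 of the 10 (TRAF1, TRAF2 and TRAF5), against 16.8%. These 3 genes also had a shared summit, against 12.2% of all protein-coding genes. With 10 genes, each gene was worth 10 percentage points, so these counts were not far from the background. Split by role, 3 of the 6 TRAF genes, 0 of the 2 cIAP genes and 0 of the 2 kinase genes had a shared summit.

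Within 10 kb of the gene body, TRAF1 and TRAF4 had a summit in replicate 1 (8.33% of all protein-coding genes did) and TRAF1 alone in replicate 2 (5.20%). TRAF1 was also the single gene of the 10 whose summit fell within 1 kb of an annotated start site, in both replicates. Such a summit was found at 1.93% of protein-coding genes in replicate 1 and 0.973% in replicate 2. TRAF1 thus had a listed p52 site at its own 5′ end, whereas the shared sites counted for TRAF2 and TRAF5 were 33.2 to 96.6 kb from those genes.

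**Figure D1:**
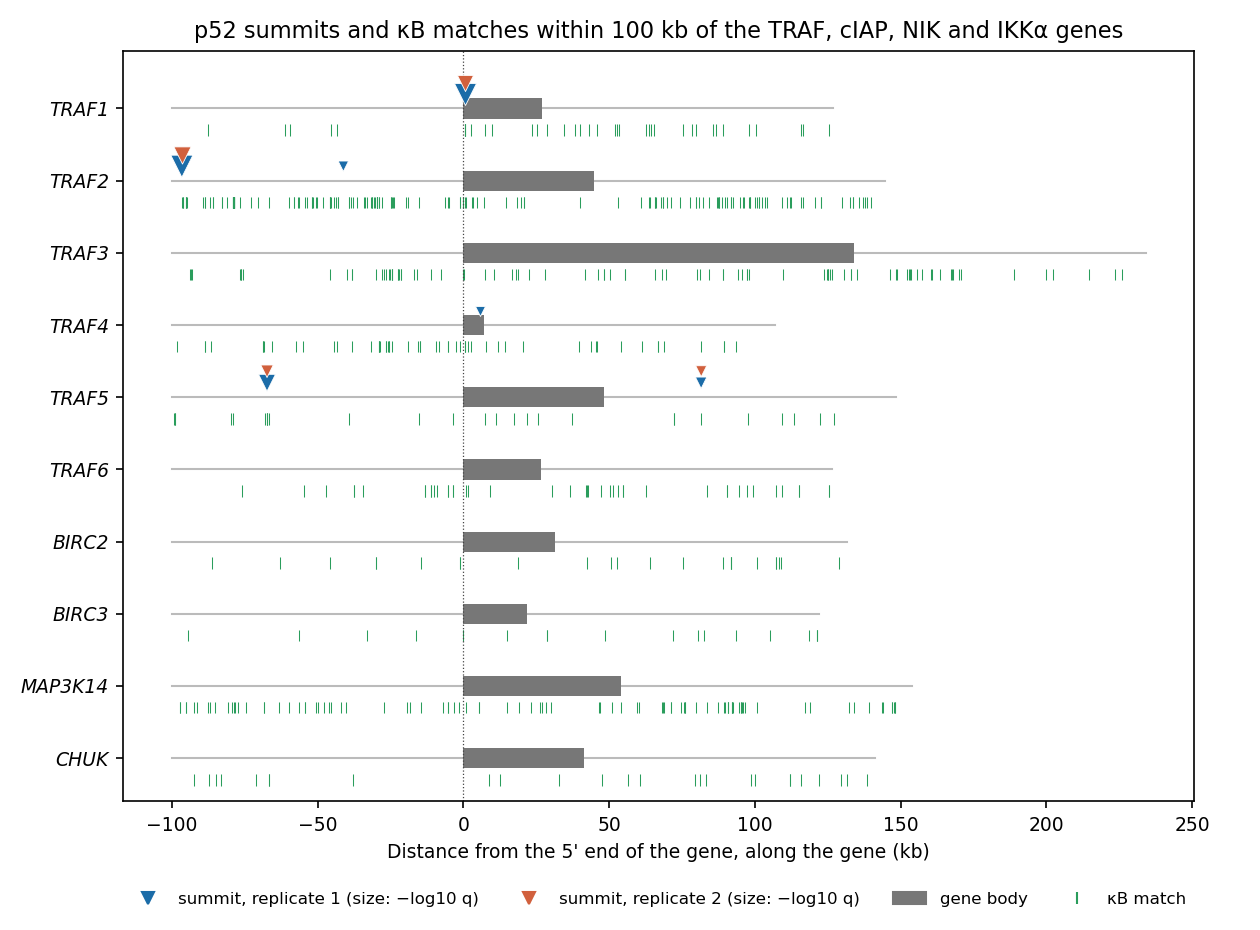
Map of the 10 genes, each drawn from its 5′ end at 0 kb in its own direction, with the gene body as a grey bar, the 100 kb on either side as a line, κB matches as green ticks and summits as triangles (blue, replicate 1; orange, replicate 2; larger for a higher −log10 q). TRAF1, TRAF2 and TRAF5 had summits in both replicates, TRAF4 in replicate 1 alone, and the lines of TRAF3, TRAF6, BIRC2, BIRC3, MAP3K14 and CHUK carry κB ticks but no summit.

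All 4 shared sites carried a match to the κB element, read here as GGG, a purine, any 2 bases, 2 pyrimidines and CC on either strand. The sequences at 3 of the 4 are shown. Each line gives the hg38 plus strand 5′ to 3′ for 141 bases centred on the summit of replicate 1, with the κB matches in capitals.
TRAF1, chr9:120928448-120928588: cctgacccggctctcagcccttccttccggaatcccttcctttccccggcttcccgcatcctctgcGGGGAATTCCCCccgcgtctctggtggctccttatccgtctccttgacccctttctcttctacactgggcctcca
TRAF2, chr9:136785218-136785358: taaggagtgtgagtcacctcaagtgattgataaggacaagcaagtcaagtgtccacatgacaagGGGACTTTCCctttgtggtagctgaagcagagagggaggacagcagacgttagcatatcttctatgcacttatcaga
TRAF5, chr1:211259134-211259274: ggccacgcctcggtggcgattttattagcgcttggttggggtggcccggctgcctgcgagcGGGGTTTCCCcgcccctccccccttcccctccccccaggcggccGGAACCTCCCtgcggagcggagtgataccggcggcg

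TRAF1 encodes an adaptor that lacks the RING domain of its relatives and works together with TRAF2 and the cIAPs. The gene (ENSG00000056558.11) lies at chr9:120902393-120929173 on the minus strand. Its summit was at the same base in both replicates, 120928518, in an intron 655 bp downstream of the 5′ start site at 120929173. The −log10 q was 42.5 in replicate 1, rank 196 of 2007, and 19.0 in replicate 2, rank 350 of 1467. The summit was therefore in the strongest 9.77% of the first list and the strongest 23.9% of the second.

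The TRAF1 summit sat on the 12-base run GGGGAATTCCCC at 120928514 to 120928525, which reads the same on both strands. This run holds 3 overlapping κB matches, whose centres were 0.5, 1.5 and 2.5 bp from the summit. All of the 31-base words around the summit occurred once in the reference, so the position was not shared with another copy of the sequence. Of the 38 κB matches within 100 kb of TRAF1, these 3 were the ones with a summit within 100 bp, in either replicate.

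TRAF2, the adaptor that binds the cIAPs directly, is encoded at chr9:136881912-136926607 on the plus strand (ENSG00000127191.18). The shared summit counted for it lay at 136785288 in replicate 1 and 136785290 in replicate 2, in intergenic sequence 96.6 kb upstream of the gene body, close to the limit of 100 kb. The −log10 q was 43.0 (rank 192 of 2007) and 22.8 (rank 280 of 1467), nearly the values at TRAF1. The region is crowded, with 17 other protein-coding genes within 100 kb of TRAF2. The nearest start site of any gene to this summit was that of ATP6V1G1P3, a processed pseudogene, at 5349 and 5351 bp. The nearest coding one was that of TMEM141, a transmembrane protein gene, at 6056 and 6054 bp. The link to TRAF2 thus rests on the distance rule alone.

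At this site the single κB match was GGGACTTTCC at 136785282 to 136785291, with its centre 1.5 bp from the summit of replicate 1 and 3.5 bp from that of replicate 2. It was the only one of 164 κB matches within 100 kb of TRAF2 with a summit within 100 bp, in each replicate. An AP-1 site, TGAGTCA, lay at 136785227 to 136785233, with its centre 58 and 60 bp from the summits, and the letters can be seen near the left end of the TRAF2 line. AP-1 matches (TGACTCA on either strand) were found within 100 bp of 8.15% of summits in replicate 1 and 7.92% in replicate 2, and this was the only site of the 10 genes with one. Of the 31-base words around the summit, 66.1% occurred once in the reference.

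A weaker summit at 136840696, in replicate 1 alone, also counted for TRAF2. It had a −log10 q of 3.25 (rank 1772 of 2007) and lay 41.2 kb upstream of TRAF2 within an exon of RABL6, a gene for a Rab-like GTPase. It had no κB match within 100 bp, and the nearest coding start site was that of AJM1 at 1782 bp. Just outside the limit, 115.2 kb from TRAF2, both replicates listed a further summit, at 136766705 with a −log10 q of 11.6 and at 136766718 with 7.20.

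TRAF5, an adaptor close in function to TRAF2 and TRAF3, had 2 shared summits (ENSG00000082512.15, chr1:211326615-211374946, plus strand). The first was 67.4 kb upstream, at 211259204 in replicate 1 and 211259215 in replicate 2, with a −log10 q of 21.9 (rank 487 of 2007) and 8.23 (rank 841 of 1467). It lay 75 and 64 bp from an annotated start site of RCOR3, a gene for a REST corepressor, and so in the promoter of a neighbour. All of its 31-base words occurred once in the reference.

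The κB match nearest to the RCOR3 summits was GGGGTTTCCC at 211259195 to 211259204, 4.5 and 15.5 bp from them. A match on the minus strand at 211259239 to 211259248 was 39.5 and 28.5 bp away, and a further one at 211259102 to 211259111, 97.5 bp away, fell within 100 bp of the summit of replicate 1 alone and is left of the printed bases.

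The other TRAF5 summit was 33.2 kb downstream of the gene in both replicates, inside an intron of LINC00467, a long non-coding RNA gene. It was the weakest of the 4 shared sites, with a −log10 q of 5.64 (rank 1496 of 2007) and 4.54 (rank 1153 of 1467). A κB match lay to one side of both summits, 64.5 and 33.5 bp from them. In these windows 28.1% and 44.4% of the 31-base words occurred once in the reference, so most of the sequence has other copies, and how reads were shared among them was not tested. The nearest start site of any gene was that of SNX25P1, an unprocessed pseudogene. The nearest coding start site was one of TRAF5 itself, at 39.2 kb.

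TRAF4, an adaptor first found as a gene overexpressed in metastatic breast cancer, had 1 summit in replicate 1 and none in replicate 2 (ENSG00000076604.16, chr17:28744011-28750956, plus strand). The summit at 28749787 lay in the exon that holds the 3′ UTR of the gene, 1663 bp from the nearest TRAF4 start site and 292 bp from that of a long non-coding RNA gene, ENSG00000265840. Its −log10 q of 2.19 was near the end of the list, at rank 1925 of 2007. It had no κB match within 100 bp, also when 1 mismatch was allowed, a form found at 75.4% of summits in replicate 1 and 75.7% in replicate 2. In replicate 2 the nearest summit was 275.9 kb from the gene, at 28468135, and 56 κB matches within 100 kb of TRAF4 had no summit in either replicate.

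The 10 genes together had 6 summits in replicate 1 and 4 in replicate 2. A κB match lay within 100 bp of 4 of the 6, where 52.2% of all summits on chromosomes 1 to 22, X and Y had one, and of 4 of the 4 in replicate 2, where the share was 57.5%. The 4 sites with a match were the 4 shared ones. The 2 without, in RABL6 and TRAF4, were in replicate 1 alone, with a −log10 q of 3.25 and 2.19. The shared site in LINC00467 was also low, at 5.64 in replicate 1 and 4.54 in replicate 2. On chromosomes 1 to 22, X and Y, replicate 1 had κB matches at 65.0% of 855 shared and 40.7% of 949 unshared summits. Replicate 2 had them at 65.1% of 855 and 39.7% of 370. The order near the 10 genes was thus that of all summits on these chromosomes.

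**Figure D2:**
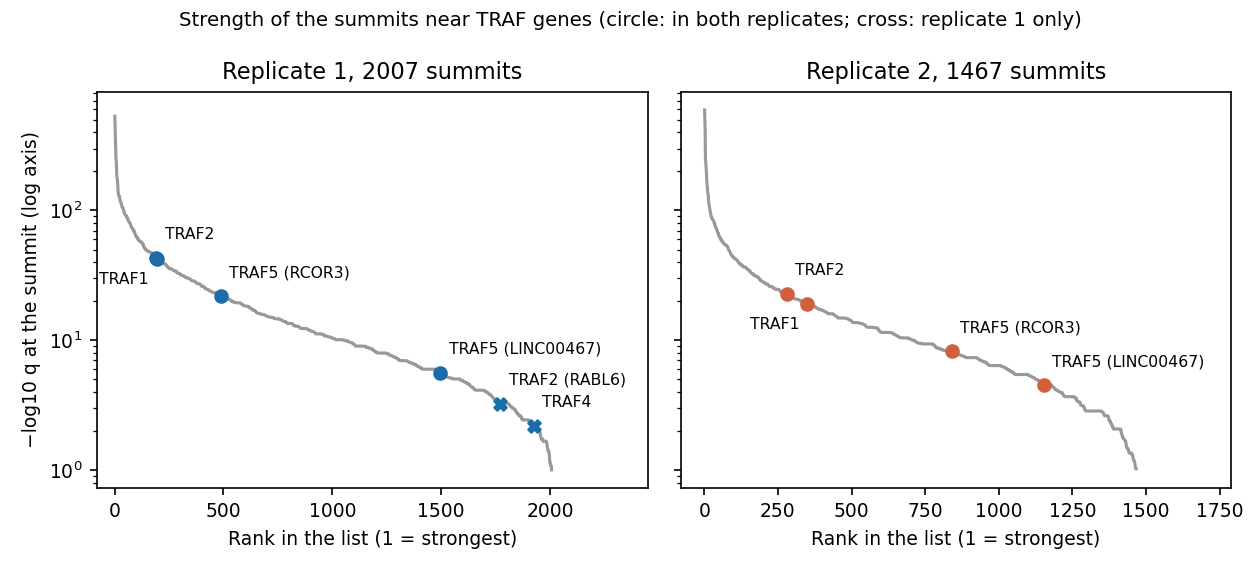
−log10 q at each summit (vertical, log axis) against its rank (horizontal) in replicate 1 and replicate 2, with the whole list as a grey line and the summits within 100 kb of a TRAF gene marked (circle, shared; cross, replicate 1 alone; the gene in brackets is the one the summit lies in or next to). The TRAF1 and TRAF2 points are the highest of those marked in both lists, at 42.5 and 43.0 in replicate 1 and 19.0 and 22.8 in replicate 2, and the 2 crosses are at the far end of the list at 3.25 and 2.19.

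All 4 shared sites had a higher −log10 q in replicate 1 than in replicate 2, with ratios of 2.23 at TRAF1, 1.89 at TRAF2, 2.66 at the RCOR3 site and 1.24 at the LINC00467 site. Over all 990 shared pairs, those on other sequences included, the median ratio was 1.58, with quartiles of 1.02 and 2.19. Values were thus mostly higher in replicate 1 over the whole list as well. The value of −log10 q grows with depth, and a difference in occupancy between the replicates cannot be read from it. Positions were close between replicates, at 0, 2, 11 and 31 bp apart for TRAF1, TRAF2, RCOR3 and LINC00467, where the median over all pairs was 15 bp.

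Genes were also ranked by the strongest summit within 100 kb. TRAF2 was 526th and TRAF1 561st of the 5005 protein-coding genes with a summit in replicate 1, TRAF5 was 1322nd and TRAF4 4784th, where the median gene had a −log10 q of 10.7. In replicate 2, TRAF2 was 555th, TRAF1 726th and TRAF5 1834th of 3362, with a median of 9.37. TRAF1 and TRAF2 were above the median gene in both replicates, whereas TRAF5 was above it in replicate 1 and slightly below it in replicate 2. Neighbouring genes share summits in these counts.

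BIRC3 encodes cIAP2, a ubiquitin ligase that acts on NIK in the resting complex, and BIRC2 encodes its close relative cIAP1. The genes are neighbours on the plus strand of chromosome 11, BIRC3 (ENSG00000023445.17) at chr11:102317484-102339403 and BIRC2 (ENSG00000110330.10) at chr11:102347211-102378670, with 7808 bp between them. Neither replicate listed a summit within 100 kb of either. The nearest one was at 100981403 in replicate 1 and 100981443 in replicate 2, 1336081 and 1336041 bp from BIRC3, with a −log10 q of 12.5 and 6.26. A nearer summit was found for 82.7% of protein-coding genes in replicate 1 and 71.5% in replicate 2, so BIRC3 was farther from a listed site than most genes.

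The sequence of the BIRC3 promoter nevertheless held κB matches. Among RefSeq promoters (GRCh38.p14, 250 bases before to 50 after each start) all 10 genes were found, with 15 promoters, of which 2 (13.3%) had a κB match against 11.3% of 35116 promoters. These were the promoters of BIRC3 and TRAF3. Within 1 kb of annotated start sites, TRAF2 had 13 matches, TRAF4 4, MAP3K14 3 and TRAF6 1, none of them with a summit. For BIRC3 and TRAF3 the 250 bases before each start are shown, in the direction of the gene and 5′ to 3′, with the κB matches in capitals. These were the matches in the RefSeq windows, and none had a summit.
BIRC3, chr11:102317234-102317483: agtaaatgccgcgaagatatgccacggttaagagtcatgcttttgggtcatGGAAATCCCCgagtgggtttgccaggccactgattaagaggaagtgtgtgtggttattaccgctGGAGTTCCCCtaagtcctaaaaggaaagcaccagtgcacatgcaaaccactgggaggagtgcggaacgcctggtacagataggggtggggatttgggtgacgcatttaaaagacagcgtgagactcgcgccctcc
TRAF3, chr14:102777199-102777448: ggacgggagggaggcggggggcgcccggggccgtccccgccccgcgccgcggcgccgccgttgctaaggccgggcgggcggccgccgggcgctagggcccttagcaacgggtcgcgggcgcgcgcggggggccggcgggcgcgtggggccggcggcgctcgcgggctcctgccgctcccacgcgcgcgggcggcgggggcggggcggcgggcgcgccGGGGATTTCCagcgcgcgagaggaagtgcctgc

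In BIRC3 the matches began at −199 and −135 from the start site, at 102317285 to 102317294 and 102317349 to 102317358. In TRAF3 the match began at −33, at 102777416 to 102777425. The first BIRC3 match and the TRAF3 match are the same 10-base word read on opposite strands, GGAAATCCCC and GGGGATTTCC. The promoters of TRAF1, by contrast, had no match within these windows. Its κB run lay downstream of the most 5′ of these starts and upstream of the others. The summit was 653 bp from the first of them, and 1722 and 13935 bp from the others.

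κB matches differ in how often they carried a summit, and this was measured for each of the 100 possible 10-base words, both strands counted as 1 word. Of 446679 κB matches on chromosomes 1 to 22, X and Y, 0.413% had a summit within 100 bp in replicate 1 and 0.318% in replicate 2. Within 100 kb of the 10 genes there were 565 matches, of which 8 (1.42%) had one in replicate 1 and 7 (1.24%) in replicate 2. These 8 matches were at 4 sites, 3 of them overlapping at TRAF1 and 3 at RCOR3, so they were not independent.

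The words at TRAF1 were those most often found at a summit. GGGGAATTCC was first of the 100 words in both replicates, with a summit at 5.05% of its 4394 genomic copies in replicate 1 and 4.35% in replicate 2. GGGAATTCCC, also at TRAF1, was second, with 4.36% and 3.69% of 4309 copies. The 2 words overlap where they occur as a run, as at TRAF1, so such runs were counted for both. GGGACTTTCC, upstream of TRAF2, had a summit at 1.39% and 0.839% of 4884 copies, and GGGGTTTCCC, at RCOR3, at 0.464% and 0.379% of 9490 copies. The median word had a summit at 0.0722% of its copies in replicate 1 and 0.0574% in replicate 2, so the 4 words named here were above the median. The other RCOR3 words were lower, at 0.226% and 0.0752% for the match at 211259102 and, at about the median, 0.0751% and 0.0501% for the match at 211259239.

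The word shared by the BIRC3 and TRAF3 promoters belonged to the same upper end, with a summit at 4.01% of 4744 copies in replicate 1 and 3.52% in replicate 2. The second BIRC3 word had one at 1.02% and 0.621% of 5798 copies. Both promoters therefore held a word that was often found at listed sites elsewhere, without a listed site of their own. Even so, no word had a summit at more than 5.05% of its copies, and a match in the letters is not a bound site.

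**Figure D3:**
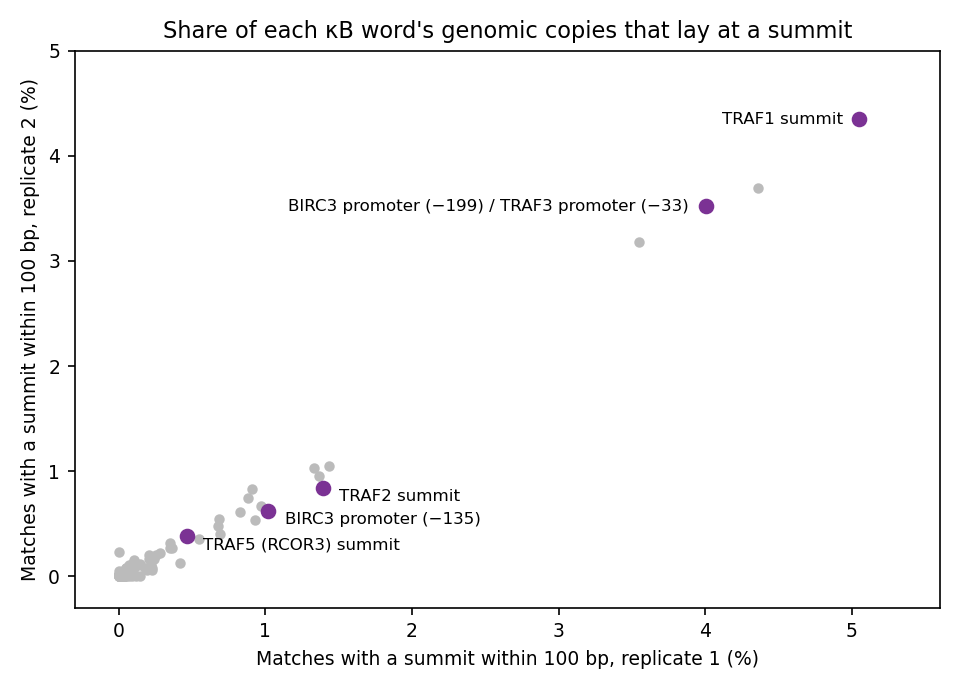
Share of the genomic copies of each of the 100 κB words with a p52 summit within 100 bp, in replicate 1 (horizontal, percent) and replicate 2 (vertical, percent), with the words nearest to the shared summits of TRAF1, TRAF2 and TRAF5 (at RCOR3) and those in the BIRC3 and TRAF3 promoters in purple. The TRAF1 word is the highest point, at 5.05% and 4.35%, and the word of the BIRC3 and TRAF3 promoters lies close to it at 4.01% and 3.52%.

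TRAF3, the adaptor that ties NIK to the cIAP complex, has the longest body of the 10 genes, 134 kb (ENSG00000131323.17, chr14:102777449-102911500, plus strand), and still had no summit within 100 kb. The nearest was 197.6 kb downstream in both replicates, at 103109114 with a −log10 q of 10.1 in replicate 1 and at 103109107 with 3.68 in replicate 2. There were 92 κB matches within 100 kb of the gene and 8 within 1 kb of one of its start sites, none with a summit.

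TRAF6, an adaptor of interleukin-1, Toll-like and some TNF family receptors, was farther from any site (ENSG00000175104.15, chr11:36483769-36510272, minus strand). Its nearest summit was 865.4 kb away in replicate 1, with a −log10 q of 3.08, and 1201.1 kb away in replicate 2, with 7.16. A nearer summit was found for 73.1% of protein-coding genes in replicate 1 and 68.8% in replicate 2. Within 100 kb of TRAF6 there were 43 κB matches, none with a summit.

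MAP3K14 encodes NIK, the kinase whose build-up starts the pathway (ENSG00000006062.18, chr17:45263119-45317029, minus strand). It had no summit within 100 kb, and in replicate 1 it only just fell outside, with a summit at 45148586, 114.5 kb from the gene, at a −log10 q of 2.67. In replicate 2 the nearest was 1684.2 kb away. None of its 94 κB matches had a summit. MAP3K14 was unlike the other 9 genes in its reference sequence, since 0% of the 31-base words within 1 kb of its 5′ start site were single-copy, where the others had 84.5% to 100%. All of these words also occurred on each of 2 alternate sequences of the same region, which carried 0 summits in either replicate. Over the gene and 100 kb on each side, 45.3% of the sampled words were single-copy, where the other genes had 76.3% to 87.9%. The alternates held 45.5% to 46.3% of the sampled words of this region. Reads from the start site and these other parts could be placed on more than 1 sequence if the alternates were in the mapping reference. The part of this in the absence of a summit within 100 kb was not tested.

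CHUK encodes IKKα, the kinase that phosphorylates p100 (ENSG00000213341.11, chr10:100188300-100229596, minus strand). The nearest summit was 805.5 kb away in replicate 1, with a −log10 q of 6.97. In replicate 2 it was 2164.9 kb away, at 102394499, which is the strong summit at the start of NFKB2 with a −log10 q of 70.0. CHUK, BIRC2 and TRAF5 had no κB match within 1 kb of any of their annotated start sites, the nearest being at 1044, 1064 and 2056 bp, and none of the 26 matches within 100 kb of CHUK or the 24 of BIRC2 had a summit.

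**Figure D4:**
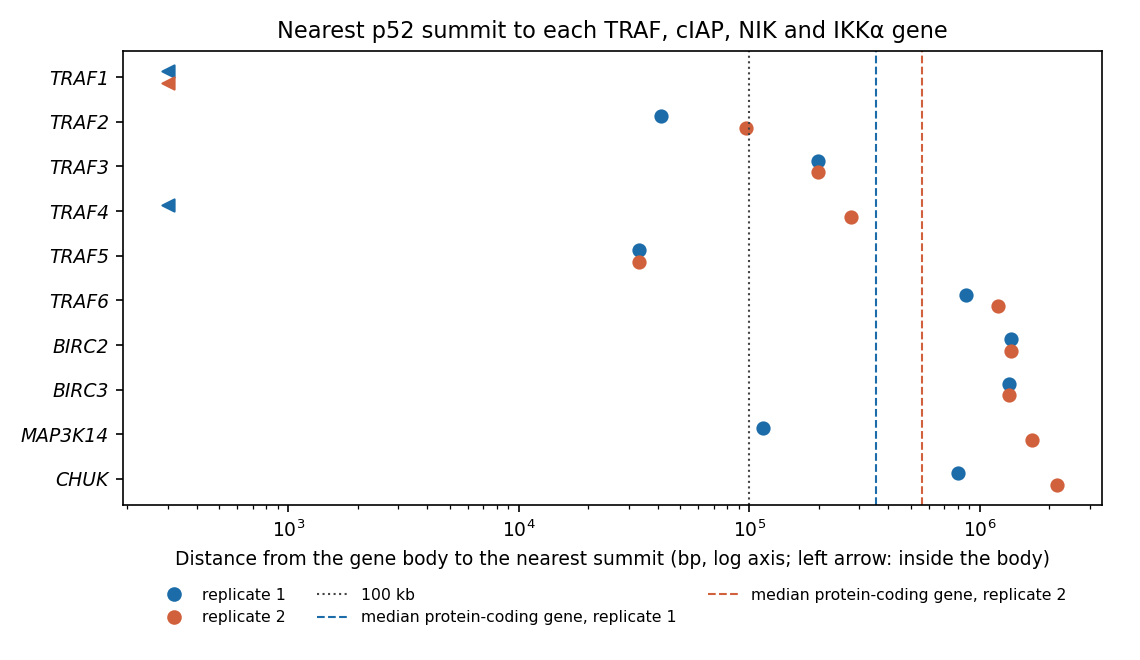
Distance from each gene body to the nearest summit (bp, log axis) in replicate 1 (blue) and replicate 2 (orange), with arrows at the left for a summit inside the body, a dotted line at 100 kb and dashed lines at the median of all protein-coding genes (354.5 kb in replicate 1 and 558.9 kb in replicate 2). TRAF1, TRAF2, TRAF3, TRAF4 and TRAF5 lie left of both medians, and TRAF6, BIRC2, BIRC3 and CHUK right of both, whereas MAP3K14 is left of the median in replicate 1 and right of it in replicate 2.

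The peak numbers in the lists were also followed. They ran in genome order up to 4210 in replicate 1 and 4732 in replicate 2, of which 47.7% and 31.0% were listed, so the remaining numbers were absent from the lists. At all 10 genes, 0 numbers were missing between the listed summits that flank the gene on either side, in both replicates. This bears on peaks removed after numbering and not on the threshold at which peaks were called.

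The other genes of the pathway were counted in the same way. Of 49 such genes, 23 had a summit within 100 kb in replicate 1, 13 in replicate 2 and 11 a shared one, where the shares of all protein-coding genes were 25.0%, 16.8% and 12.2%. Most of the genes with a shared summit were NF-κB subunits or their inhibitors, with 3 of 5 subunit genes and 4 of 4 inhibitor genes. NFKB2 itself had a strongest −log10 q of 149 and 70.0, RELB of 36.2 and 23.3, and REL of 12.8 and 3.68. Among the inhibitors, which hold NF-κB dimers in the cytoplasm or, as BCL3 does, modulate them in the nucleus, NFKBIE had 41.7 and 13.4, BCL3 33.2 and 12.6, NFKBIB 23.0 and 13.5, and NFKBIA 22.2 and 6.21. Both replicates placed a summit within 1 kb of an annotated start at 7 of the 49 genes (1.93% of all protein-coding genes had one in replicate 1 and 0.973% in replicate 2), and 6 of these were subunit or inhibitor genes.

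In the other groups, a shared summit lay within 100 kb of 1 of 7 ligand genes, TNFSF12, which encodes TWEAK. The same held for 1 of 7 receptor genes (CD40), 1 of 11 canonical arm genes (the kinase gene IKBKB) and 1 of 9 ubiquitin enzyme and partner genes (TNIP1). These shares are to be read against the 12.2% of all protein-coding genes. The strongest −log10 q within 100 kb was 18.1 and 10.4 for TNFSF12 and 17.6 and 9.47 for CD40. It was 26.0 and 8.34 for IKBKB and 57.8 and 60.5 for TNIP1. The nearest summit to an annotated start was 2096 and 5207 bp away for TNFSF12 and 80598 and 80574 bp for CD40. For IKBKB it was 16795 and 16798 bp away and for TNIP1 50 and 62 bp. None of 6 further TRAF and IAP family genes had a shared summit, although 3 had one in replicate 1 and 1 in replicate 2. TRAF1, with 42.5 and 19.0 and a summit 655 bp from its start site, had a higher value than each of the 4 inhibitor genes in both replicates, and a lower one than NFKB2 and TNIP1, whereas RELB was below TRAF1 in replicate 1 and above it in replicate 2. The cIAP and kinase genes of the circuit had no summit to compare.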

How the data were processed

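Per the labels and the study's methods, the authors used Trimmomatic for trimming, Bowtie2 for mapping to hg38 and MACS2 for calling peaks, in which the input signal was subtracted, and took out blacklisted regions. Versions and the q threshold were not given in the sources used here. The deposited lists, 1 per replicate and without a header, held summits of 1 bp and a value that was read, from the MACS2 column layout, as −log10 q. The −log10 q values were used to rank summits within a list. Depth was unknown, so no interval was given for a level.

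Genes and start sites came from GENCODE release 44. Distances were taken to the gene body. κB matches were counted where their centre lay within 100 bp of a summit, and 31-base words were counted over the whole reference, alternates included. The AP-1 scan, the word counts and the peak number check were added after the lists were seen. No test was made, since there was 1 group of 2 replicates, so p-values were not computed. The members and gene lists were chosen with earlier results of these data known. All 10 genes, pathway genes with a shared summit and the coding gene nearest to each summit were named. The sequence at 1 TRAF5 site is not reported here. Scripts used Python 3.11.15, numpy 2.4.6, pandas 2.3.3, numba 0.67.0 and matplotlib 3.10.9, and the counting functions were tested on simulated data.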

Additional observations from a re-analysis of the deposited data

How the results depend on the processing

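Of 44 alternative values over 10 results, 30 were within 1.5 times the reported value and 14 moved further. Within 10 kb in place of 100 kb, genes with a summit fell from 4 to 2 in replicate 1 and from 3 to 1 in replicate 2. They fell from 3 to 1 for shared summits and from 4 to 2 in either replicate. The share of all protein-coding genes fell as well, from 25.0% to 8.33% in replicate 1 and from 16.8% to 5.20% in replicate 2. For shared summits it fell from 12.2% to 3.66%. Summits fell from 6 to 2 and from 4 to 1, and summits with a κB match from 4 to 1 in each replicate. Within 50 kb, genes with a summit stayed at 4 in replicate 1 and fell from 3 to 2 in replicate 2. Genes with a shared summit fell from 3 to 2. The shares of all protein-coding genes were 16.7% in replicate 1, 10.7% in replicate 2 and 7.59% for shared summits. There were 2 summits in replicate 2, and 2 summits with a κB match in each replicate. The stronger 50% of each list kept 3 summits for replicate 1 and 2 for replicate 2, and 2 with a κB match in replicate 2. Without replicate 1 the genes with a summit in either list were 3 and without replicate 2 they were 4. Measuring to start sites left the 8 counts computed with it as they were, sharing within 100 or 500 bp left the number of genes with a shared summit at 3, and the stricter κB form left the summits with a κB match at 4 in each replicate, while allowing 1 mismatch gave 5 summits with a κB match in replicate 1, where a reach of 50 bp gave 3. The TRAF1 values did not move at 10 kb. No paired analysis was possible because there was 1 group. The absence of a summit is limited by the depth of each library, which was unknown, and distance does not tie a summit to a gene.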
